A study of Mus musculus with 10 samples.

Results

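Granule cells of the cerebellum are small excitatory neurons that receive mossy fibres and send parallel fibres to Purkinje cells. They are the most numerous neurons of the mouse brain, so RNA from a piece of tissue with cerebellum carries much of their transcript. Their synapses onto Purkinje cells are held together by secreted cerebellins, which bridge receptors on the parallel fibre and on the Purkinje cell. The 10 granule cell genes described here were taken by gene name from a table of 54532 genes. They were Cbln3, Cbln1, Fat2 and Crtam, which encode secreted or surface proteins, the transcription factors Neurod1, Zic1, Zic2, Pax6 and Etv1, and Chn2, which encodes a Rac regulator. All 10 were found, once each, and all passed the filter on low counts in every comparison, Cbln3, Fat2 and Crtam only through the libraries where they are high. They were chosen by their counts in 2 kinds of library in these data, so the difference between those kinds is given as a description with no test.

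Brain RNA of 10 Slc20a2 homozygous knockout (HO) mice was sequenced. Slc20a2 encodes a phosphate transporter, and the mice carried the tm1a(EUCOMM)Wtsi allele, bred from heterozygous parents. From the age of 1.5 months, 6 mice received FTY720, a sphingosine-1-phosphate receptor modulator, at 0.5 mg/kg in dimethyl sulfoxide into the peritoneum 3 times a week for 12 weeks, and 4 mice received the solvent alone (placebo). Only a part of each brain was used for RNA, every mouse carried the knockout, and no wild type library was analysed here. Each mouse's name holds a digit after the letter of its group, 1 or 3, whose meaning is not stated. Digit 1 marked 3 FTY720 mice (F1-622, F1-624 and F1-918) and 1 placebo mouse (P1-623). Digit 3 marked 3 FTY720 mice (F3-609, F3-612 and F3-908) and 3 placebo mice (P3-612, P3-904 and P3-907). FTY720 was therefore given to 3 of the 4 digit 1 mice and to 3 of the 6 digit 3 mice, so treatment and digit were not balanced.

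The counts on genes summed to 16653895 in the median mouse and ranged from 14772745 to 18303981. Values are given as counts, as CPM (counts scaled to a common library size by TMM) or, where different genes are compared, as FPKM, which also divides by gene length. Slc20a2 itself had between 89 and 294 counts in every library, a whole-gene count that is not divided by exon. Its level was between 6.26 and 9.34 CPM with digit 1 and between 11.6 and 16.9 CPM with digit 3.

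The granule cell genes divided the libraries by the digit. For all 10 genes, every digit 3 library was above every digit 1 library in CPM, a pattern held by 7.51% of the 18785 genes tested over all libraries. This share is background only, since the genes were picked for that difference. By the ratio of the mean CPM with digit 1 to that with digit 3, 3 genes were all but absent with digit 1, at between 0.240% and 0.560% of the digit 3 level. The other 7 were shared, at between 13.2% and 44.5%. The limits set for these classes, ratios of 0.05 and 0.5, fell in gaps between Crtam and Neurod1 and above Etv1. Of all genes tested, 0.245% had a ratio under 0.05 and 5.50% lay between the limits. In bulk tissue, fewer cells of a type and less RNA per cell cannot be told apart, and which brain regions either kind of library held is not stated.

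Cbln3 encodes a cerebellin that granule cells make and that leaves the cell together with Cbln1. It lies on chromosome 14 from 55878913 to 55884392 on the minus strand (GRCm38, ENSMUSG00000040380). Its counts with digit 1 were 9 in F1-622, 7 in F1-624, 19 in F1-918 and 9 in P1-623. With digit 3 they were 5599 in F3-609, 5163 in F3-612, 5352 in F3-908, 4521 in P3-612, 4653 in P3-904 and 4637 in P3-907. Every FTY720 library with digit 3 was above every placebo library with digit 3, while the digit 1 libraries stood at the level of a few counts. Its mean level was 0.695 ± 0.315 CPM (SD, n = 4) with digit 1 and 289.7 ± 33.0 CPM (SD, n = 6) with digit 3, a ratio of 417. Pooled over libraries, the digit 1 level was 0.242% of the digit 3 level, with an exact 95% interval of 0.175% to 0.324%. Such intervals pool the counts of the mice, so they cover at most counting error and leave out the spread between mice. The reads carry no molecular identifiers, so copies of a molecule are not told apart either.

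The sequence just before the first annotated exon of Cbln3 is shown because this gene differed most between the 2 kinds of library and was also among those whose treatment groups did not overlap. It is the part of the RefSeq promoter window that lies before the gene as the count table places it, 114 bases at chr14:55884393-55884506 (GRCm38.p6, minus strand). Capitals mark CTGCTG, the reverse complement of CAGCAG, which is not an E-box. Neither CAGCTG nor CAGATG, the other hexamers searched, was in the Cbln3 window.

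Cbln3: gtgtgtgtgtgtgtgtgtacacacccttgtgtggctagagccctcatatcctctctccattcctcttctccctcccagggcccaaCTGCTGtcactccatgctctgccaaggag

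The RefSeq windows, which reach from 250 bases before to 50 bases after a gene's start, covered 7 of the 10 genes with 12 windows. Hexamers were searched on both strands. CAGCTG and CAGATG are of the E-box kind (CANNTG), which basic helix-loop-helix factors such as Neurod1 bind. CAGCAG is not of that form. CAGCTG was in 2 of the 12 windows, both of Chn2, against 16.3% of all 32851 windows. CAGATG was in 3, of Chn2 and Etv1, against 17.2% of all windows. CAGCAG was in 6, of Chn2, Fat2, Etv1 and Cbln3, against 31.6% of all windows. These are matches of letters, and the windows of a single gene are not independent.

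Fat2 encodes a giant cadherin of parallel fibres. It spans chromosome 11 from 55250609 to 55336564 on the minus strand (ENSMUSG00000055333), and its exons sum to 14528 bases, the longest of the 10 genes. It had 6, 6, 5 and 5 counts in F1-622, F1-624, F1-918 and P1-623. With digit 3 it had 1909 counts in F3-609, 2512 in F3-612, 1769 in F3-908, 1540 in P3-612, 3333 in P3-904 and 2353 in P3-907. The digit 1 libraries lay close together, whereas the digit 3 libraries spread widely, with both the lowest and the highest value in placebo mice. The mean was 0.351 ± 0.0525 CPM (SD, n = 4) with digit 1 and 129.2 ± 35.9 CPM (SD, n = 6) with digit 3. Pooled over libraries, digit 1 reached 0.269% of the digit 3 level (exact 95% interval 0.169% to 0.408%).

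Crtam encodes an immunoglobulin-type surface receptor that is best known from activated T-cells and natural killer cells and that binds Cadm1. It lies on chromosome 9 from 40969691 to 41004628 on the minus strand (ENSMUSG00000032021). It had 1, 4, 1 and 1 counts in F1-622, F1-624, F1-918 and P1-623. With digit 3 it had 329, 358 and 367 counts in F3-609, F3-612 and F3-908, and 335, 279 and 331 counts in P3-612, P3-904 and P3-907. The sums were 7 counts with digit 1 and 1999 with digit 3, which gives a pooled ratio of 0.575% with an exact 95% interval of 0.231% to 1.19%. Of the 7 digit 1 counts, 4 came from F1-624, and without that library the ratio of the mean CPM values fell from 0.560% to 0.337%. At this depth the digit 1 level could not be placed more closely.

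Crtam was therefore compared with T-cell genes. The 11 T-cell genes summed to between 7.90 and 13.8 CPM with digit 1 and between 8.64 and 11.4 CPM with digit 3, so these ranges overlapped. Cd4, Eomes and Lck made up most of this sum, and the highest on average was Cd4, at between 3.75 and 8.11 CPM over all libraries. Of the defining T-cell receptor genes, Cd3e had 0, 3, 0 and 0 counts in F1-622, F1-624, F1-918 and P1-623 and between 3 and 9 counts with digit 3. Cd3d had at most 2 and Cd3g at most 4 in any digit 3 library, against at least 279 for Crtam. Only 3 of the 11 genes passed the filter on low counts (Cd4, Lck and Eomes), and none was called between the digits at an adjusted p under 0.05 by edgeR. Cadm1 was at between 170.3 and 199 CPM with digit 1 and between 145 and 168 CPM with digit 3.

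The shared genes were led by Neurod1, a basic helix-loop-helix factor that granule cells of both cerebellum and dentate gyrus use in their differentiation. Neurod1 lies on chromosome 2 from 79452521 to 79456751 on the minus strand (ENSMUSG00000034701). It had 192, 209, 183 and 145 counts in F1-622, F1-624, F1-918 and P1-623. With digit 3 it had 1690, 1597 and 1579 counts in the FTY720 libraries F3-609, F3-612 and F3-908, and 1354, 1332 and 1501 in the placebo libraries P3-612, P3-904 and P3-907. The digit 1 mean of 11.6 ± 1.78 CPM (SD, n = 4) was 13.2% of the digit 3 mean of 87.6 ± 9.59 CPM (SD, n = 6). With digit 3 every placebo mouse was below every FTY720 mouse. With digit 1 the lowest level was that of P1-623, the only placebo mouse there.

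Cbln1 encodes the founding cerebellin, which granule cells secrete and which other brain regions also make. It lies on chromosome 8 from 87468405 to 87472609 on the minus strand (ENSMUSG00000031654). It had 553, 418, 623 and 486 counts in F1-622, F1-624, F1-918 and P1-623. With digit 3 it had 2792, 2871 and 3511 counts in F3-609, F3-612 and F3-908, and 3894, 3247 and 3846 counts in P3-612, P3-904 and P3-907. Unlike its partner Cbln3, Cbln1 was plainly present with digit 1, at 33.2 ± 6.45 CPM (SD, n = 4), which was 17.1% of the 194.6 ± 25.7 CPM (SD, n = 6) with digit 3. Its highest and lowest digit 3 values came from a placebo mouse and an FTY720 mouse, the opposite order to Cbln3.

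The remaining shared genes are Zic1 and Zic2, zinc finger factors of granule cell precursors, meninges and parts of the forebrain, Pax6 and Etv1, which also act in cortex, and Chn2, which encodes beta-chimaerin. Zic1 had between 875 and 1301 counts with digit 1 and between 4177 and 4818 with digit 3, a ratio of 27.2%. Zic2 had between 397 and 519 counts with digit 1 and between 1104 and 1625 with digit 3, a ratio of 38.9%. Chn2 had between 554 and 717 counts with digit 1 and between 2404 and 2939 with digit 3, a ratio of 26.5%. Etv1 stood nearest to the upper limit of this class, followed by Zic2. Pax6 had between 130 and 203 counts with digit 1 and between 414 and 540 with digit 3, a ratio of 36.5%. Etv1 had between 1185 and 1604 counts with digit 1 and between 2671 and 3651 with digit 3, a ratio of 44.5%.

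**Figure D1:**
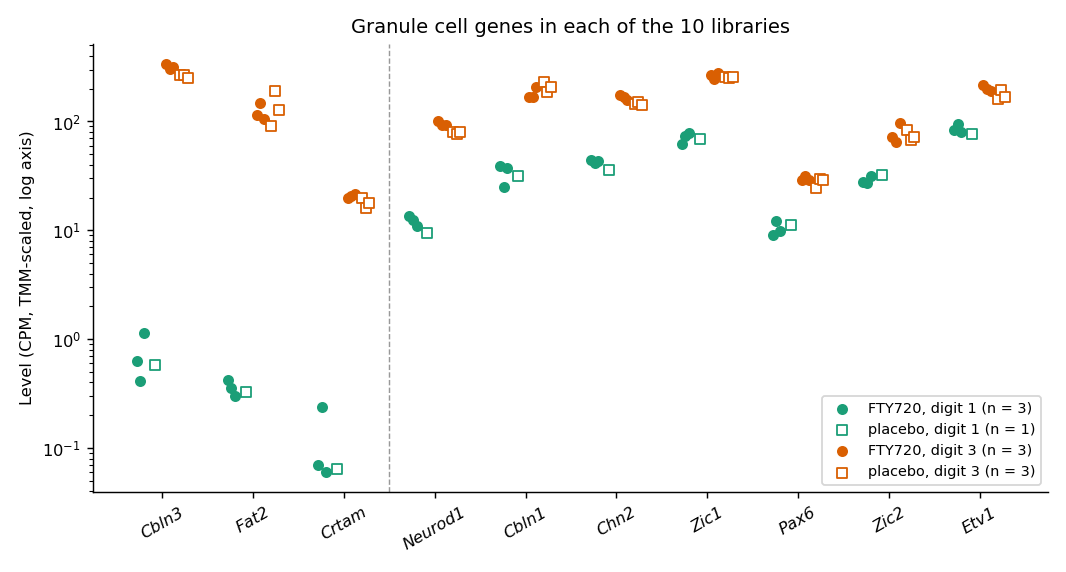
The level of each gene in CPM (log axis) in each of the 10 libraries, with 1 point per mouse: circles are FTY720, squares placebo, green digit 1 and orange digit 3. Left of the dashed line are Cbln3, Fat2 and Crtam, whose mean with digit 1 is between 0.240% and 0.560% of their mean with digit 3, and right of it the other 7 genes, where this ratio of means is 13.2% or more and single mice spread around it.

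Several of these genes share ground with neighbours. The library kit does not mark strand, so reads of overlapping genes on opposite strands cannot be told apart. Cbln1 overlaps the lincRNA Gm2694, which had at most 356 counts in a library. Neurod1 overlaps Cerkl and Gm26755, each with at most 58 counts, and Zic1 overlaps Zic4 by 3398 bases. Pax6 overlaps Pax6os1, which had at most 11 counts, and Chn2 overlaps 4 genes that code for no protein with at most 50 counts each. Zic2 and Zic5 lie 9757 bases apart. Cbln3, Fat2, Etv1 and Crtam overlap no other gene of the table.

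Compared per gene length, the order of the levels changed between the kinds of library. With digit 3, Cbln1 was at 63.6 ± 8.14 FPKM and Cbln3 at 59.1 ± 6.84 FPKM (SD, n = 6 each), and their ranges over mice overlapped. Zic1 followed at 45.2 ± 2.22 FPKM, apart from both neighbours. Neurod1 at 31.9, Chn2 at 26.6 and Zic2 at 26.2 FPKM overlapped in turn, as did Etv1 at 14.1 and Fat2 at 8.83 FPKM. Crtam at 3.74 and Pax6 at 2.44 FPKM were the lowest. With digit 1 (n = 4), Zic1 at 12.2, Cbln1 at 10.8 and Zic2 at 10.2 FPKM stood first with overlapping ranges. Chn2 at 7.01 and Etv1 at 6.24 FPKM overlapped, and then came Neurod1 at 4.20 and Pax6 at 0.889 FPKM. Cbln3, second of the 10 with digit 3, was eighth with digit 1 at 0.141 FPKM, above Fat2 at 0.0239 and Crtam at 0.0208 FPKM, whose ranges overlapped.

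The genes whose log2 CPM over the 10 libraries was most like the mean of Cbln3, Fat2 and Crtam were sought among 15175 other protein-coding genes. Since the libraries form 2 separate sets, such a correlation mainly records how tight each set is relative to the step between them, and it is given as a description. The highest Pearson r (n = 10 libraries) was that of Gabra6, at 0.999, which encodes a GABA-A receptor subunit that defines cerebellar granule cells. It had 1 to 4 counts with digit 1 and between 2189 and 2882 counts with digit 3. Sycp1, a protein of the meiotic synaptonemal complex, was listed at 0 in all digit 1 libraries and was at between 3.26 and 4.42 CPM with digit 3. Car8, a Purkinje cell gene, Kcng4 and Klhl33 completed the 5, with r between 0.996 and 0.998. Car8 was at between 9.92 and 15.1 CPM with digit 1 and between 249 and 327 CPM with digit 3.

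Of 20 further genes used by granule cells or their precursors, 19 were tested and Atoh1, the factor of embryonic precursors, had 0 counts in every library. Between the digits, 11 were higher with digit 3 at an adjusted p under 0.05 (edgeR quasi-likelihood test, Benjamini-Hochberg over all genes) and 1 was lower, against 13.1% and 13.4% of all genes tested in these directions. These counts, and those of the lists that follow, are a description, since the lists were chosen with earlier results known and genes near 0 with digit 1, such as Gabra6, passed the filter on low counts only through digit 3. Gabra6 was at 0.0737% and En2, a midbrain and hindbrain homeobox factor, at 4.0% of its digit 3 level. Grm4, Grin2c, Barhl1 and Zic5 lay between 27.7% and 49.5%. The other 13 were above 50%, and the one called lower was Slc17a7, the vesicular glutamate transporter that cortical neurons also carry, at 154% of its digit 3 level.

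Among the Zic genes reported here none was near absence with digit 1. With digit 1, Zic1 was at 27.2%, Zic5 at 38.0%, Zic2 at 38.9%, and Zic4 at 50.6% of the digit 3 mean. Among the cerebellins and their receptors the contrast was sharper. Cbln2 and Cbln4, cerebellins made outside the granule cell layer, were at 119.9% and 125% of their digit 3 level with digit 1, whereas Cbln1 was at 17.1% and Cbln3 at 0.240%. The presynaptic receptors Nrxn2 and Nrxn3 were at 131% and 95.9%, and the glutamate receptor subunit Grid1 was at 119.8%. Of Cbln2, Cbln4, Nrxn2, Nrxn3 and Grid1, Nrxn2 and Cbln4 were called lower with digit 3.

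Other cells of the cerebellum and hindbrain moved with the granule cell genes. Of 10 Purkinje cell genes, 8 were called higher with digit 3 and none lower, and their summed level was between 818 and 972 CPM with digit 1 and between 1630 and 2281 CPM with digit 3. Pcp2, at 0.418%, was the most depleted of these. Of 6 genes of Bergmann glia and cerebellar interneurons, 4 were called higher, with Slc6a5, the glycine transporter of inhibitory neurons, at 0.720%. The 6 Hox genes were at or near 0 with digit 1, so those that passed the filter did so only through digit 3. Their sum was at most 0.422 CPM with digit 1 and between 7.29 and 12.3 CPM with digit 3. Hoxa2, Hoxb3, Hoxb5 and Hoxa5 had no count in any digit 1 library. Of 4 unipolar brush cell genes, 2 were called higher with digit 3.

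Genes of cortex and dentate gyrus went mostly the other way. Of 10, 6 were called lower with digit 3 and 1 was called higher, and their sum was between 2156 and 3122 CPM with digit 1 and between 1644 and 2161 CPM with digit 3. Emx1, a cortical homeobox gene, was at 212% of its digit 3 level with digit 1. Prox1, a dentate granule cell factor, was the one called higher with digit 3, at 76.3%. None of 8 meningeal genes was called, although Zic1 and Zic2 are also made there, and the list summed to between 80.3 and 106 CPM with digit 1 and between 71.8 and 102 CPM with digit 3. How far each of these cell types contributed to the shared granule cell genes was not tested.

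**Figure D2:**
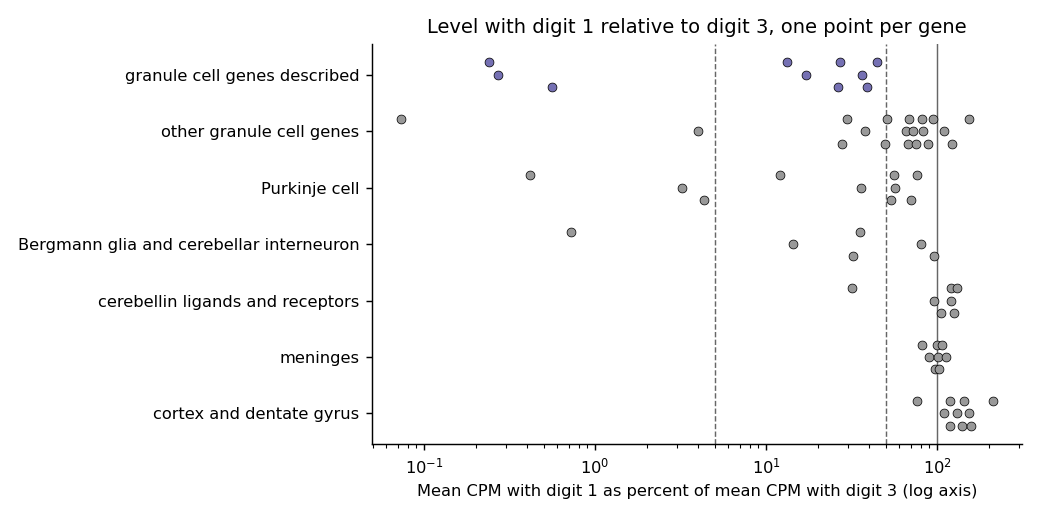
Mean CPM with digit 1 as percent of mean CPM with digit 3 (log axis), with 1 point per gene, for the 10 granule cell genes and 6 other lists. Dashed lines mark 5% and 50%, the limits of the classes, and the solid line 100%, and genes with under 10 counts in all digit 3 libraries are not drawn. Cbln3, Fat2 and Crtam sit below 1% with a few cerebellar genes, the other 7 between 13.2% and 44.5%, and meningeal genes around 100%.

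Whether FTY720 changed the granule cell genes was asked within the digit 3 libraries, 3 against 3. The genes were not chosen on this contrast, but they were chosen with earlier results of these data known. None of the 10 differed at an adjusted p under 0.05 (edgeR, Benjamini-Hochberg over the 17656 genes tested), and neither did any other gene (smallest adjusted p 0.654). DESeq2 called 5 genes at that threshold, none of them among the 10. At an unadjusted p under 0.05 there were 2 of the 10, Cbln3 and Neurod1, both higher with FTY720. The background share was 7.27% of all genes in either direction and 2.78% in the higher direction. The log2 fold change was above 0 for 8 of the 10 genes, with a median of 0.15, against a median of -0.0049 over all genes, 49.2% of which were above 0. The 10 values are not independent, since they come from the same libraries and several share a cell type.

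Cbln3 was at 335, 301 and 317 CPM in F3-609, F3-612 and F3-908, and at 269, 268 and 249 CPM in P3-612, P3-904 and P3-907. The groups did not overlap, and their means were 317 ± 16.9 and 262 ± 11.4 CPM (SD, n = 3 each). Its log2 fold change was 0.28 with a standard error of 0.10 and an adjusted p = 0.654 by edgeR.

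Neurod1 was at 101, 93.0 and 93.5 CPM in F3-609, F3-612 and F3-908, and at 80.7, 76.7 and 80.6 CPM in P3-612, P3-904 and P3-907. Here too the groups did not overlap, with means of 95.8 ± 4.44 and 79.3 ± 2.29 CPM (SD, n = 3 each). The log2 fold change was again 0.28, with a standard error of 0.10 and an adjusted p = 0.654 by edgeR. Chn2 was the only other of the 10 without overlap, at 176, 166 and 157 CPM with FTY720 against 143, 149 and 143 CPM with placebo. Its log2 fold change was 0.20 (standard error 0.10), and its unadjusted p was above 0.05. In a two-sided exact permutation test each of these 3 genes had p = 0.1, the smallest that 3 against 3 libraries can give. Groups that did not overlap were found for 13.0% of all genes tested, and for 6.41% with FTY720 the higher group.

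Both Cbln3 and Neurod1 lost their unadjusted p under 0.05 when F3-609 was left out (log2 fold changes of 0.24 and 0.24) or when P3-907 was left out (0.25 and 0.29). F3-609 had the highest level of Cbln3, Neurod1, Etv1 and Chn2 among the digit 3 libraries, and P3-907 the lowest of Cbln3 and Chn2. The count over all genes moved with the same libraries, from 1283 genes at an unadjusted p under 0.05 to 388 without F3-609, 399 without P3-907 and 3896 without P3-904. The mouse numbers begin with 6 or 9, and what this numeral means is not stated. With 6, Cbln3 was at 335 and 301 CPM in the 2 FTY720 mice and 269 CPM in the placebo mouse, and with 9 it was at 317 CPM in the FTY720 mouse and 268 and 249 CPM in the placebo mice. With this numeral as a covariate the log2 fold changes were 0.27 for Cbln3 and 0.26 for Neurod1, and both had an unadjusted p above 0.05.

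Etv1 and Crtam had fold changes of like size with overlapping groups. Etv1 was at 203 ± 13.9 CPM with FTY720 and 174 ± 17.8 CPM with placebo (SD, n = 3 each), and its log2 fold change was 0.23 (standard error 0.11). Crtam was at 20.8 ± 1.05 and 17.9 ± 1.96 CPM (SD, n = 3 each), a log2 fold change of 0.21 (standard error 0.13). Pax6, Zic2 and Zic1 had log2 fold changes of 0.10, 0.0550 and 0.0537, each below its standard error.

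Cbln1 and Fat2 were the 2 genes with lower means under FTY720. Cbln1 was at 167, 167 and 208 CPM in F3-609, F3-612 and F3-908, and at 232, 187 and 206 CPM in P3-612, P3-904 and P3-907. The log2 fold change was -0.20 (standard error 0.13), and the groups overlapped through F3-908. The FPKM ratio of Cbln1 to Cbln3 was 0.799, 0.891 and 1.05 in the FTY720 mice and 1.38, 1.12 and 1.33 in the placebo mice, so that the ratio of these partners did not overlap between the groups. This ratio was formed after both genes' values had been seen and was not tested.

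**Figure D3:**
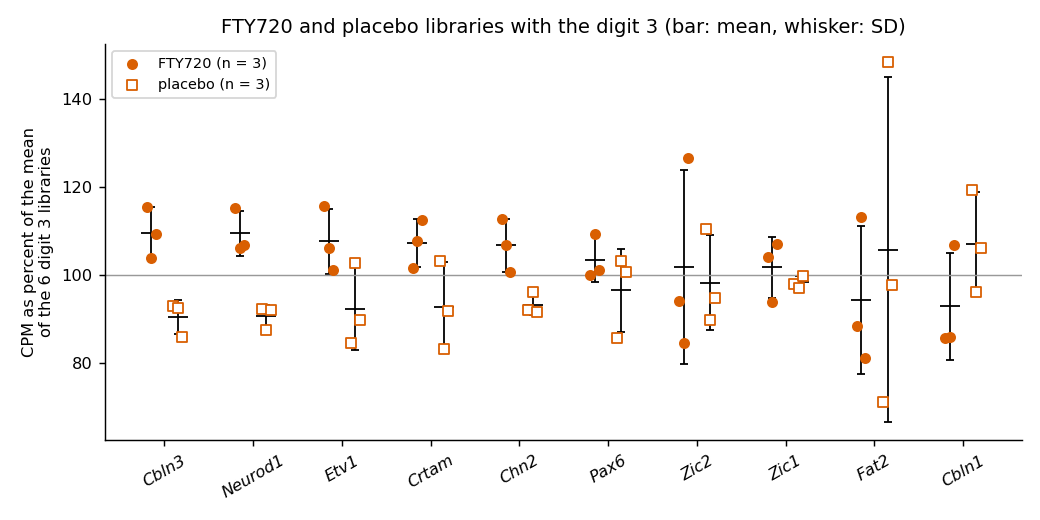
CPM of each gene as percent of its mean over the 6 digit 3 libraries, in the FTY720 (filled circles) and placebo (open squares) mice, with the mean (bar) and SD (whisker) of each group of 3. Cbln3, Neurod1 and Chn2 show no overlap between the groups, and Fat2 has the widest spread, with P3-904 highest and P3-612 lowest.

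Over the 6 digit 3 libraries, the genes varied to different degrees. The coefficient of variation was lowest for Zic1, at 4.82%, and highest for Fat2, at 27.8%. Cbln3 and Neurod1 held nearly a fixed proportion. Neurod1 was at between 0.286 and 0.324 of the Cbln3 CPM in every digit 3 library, and the SD of the log2 ratio was 0.0607 (n = 6), against 0.164 for Cbln3 and 0.157 for Neurod1 alone. Neurod1 and Chn2 were similarly tied, with an SD of 0.0721. Gabra6 did not follow Cbln3 as closely, with an SD of 0.158 for the log2 ratio. It was closer to Etv1 (SD 0.0831) and Chn2 (SD 0.0936) and furthest from Fat2 (SD 0.334). Its groups overlapped, at 172, 154 and 135 CPM under FTY720 and 130.5, 154 and 142 CPM under placebo (log2 fold change 0.12, standard error 0.12).

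Fat2, the longest of the 10 genes, was set beside other long genes. In P3-904, where Fat2 was 0.61 above its digit 3 mean on the log2 scale, the 1423 genes of at least 10000 bases were also high, with a median of 0.20 above their means. In P3-612, where Fat2 was 0.45 below its mean, these long genes had a median deviation of -0.31 and the 2057 genes of at most 2000 bases one of 0.40. The order was not strict, since F3-609 had long genes at 0.15 and Fat2 at -0.14. Between the treatment groups, the long genes had a median log2 fold change of 0.13, the short genes one of -0.24 and the 8449 genes of 2000 to 6000 bases one of -0.0424. With the trend on gene length removed from each library, the log2 fold change of Fat2 was -0.26, and with length and GC trends removed it was -0.16, neither with an unadjusted p under 0.05. Without P3-904 the log2 fold change of Fat2 turned from -0.16 to 0.16.

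**Figure D4:**
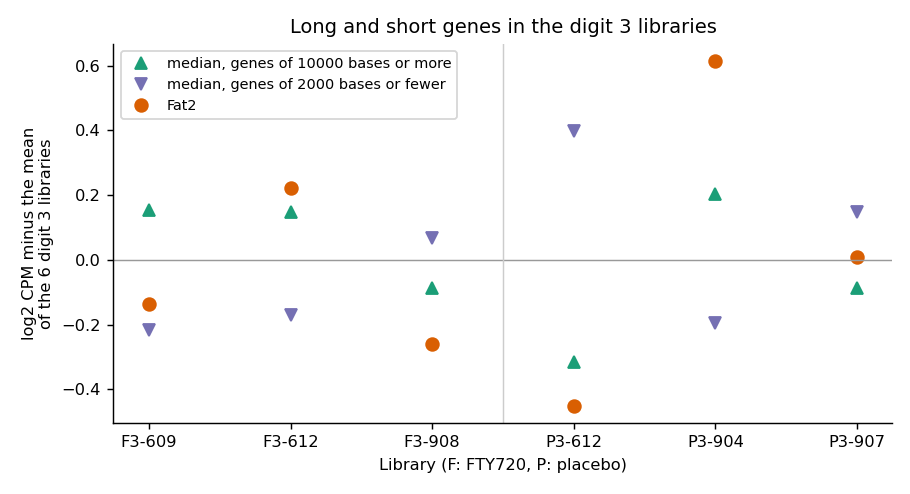
Deviation of log2 CPM from the mean of the 6 digit 3 libraries for Fat2 (circles) and as a median for genes of at least 10000 bases and of at most 2000 bases. P3-904 shows Fat2 at 0.61 and the long genes at 0.20, and P3-612 shows Fat2 at -0.45 and the long genes at -0.31.

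When trends on gene length were removed from each library, the log2 fold change was 0.27 for Cbln3 and 0.35 for Neurod1. When trends on both length and GC content were removed, it was 0.24 for Cbln3 and 0.21 for Neurod1, and neither gene was called at an adjusted p under 0.05 in either fit. Both genes are of middle length, 4866 and 2729 bases. Etv1, at 13296 bases and 39.8% GC, moved from 0.23 to -0.0106 with both trends removed, while Zic2, at 59.9% GC, moved from 0.0550 to 0.31 and then had an unadjusted p under 0.05. Chn2 moved from 0.20 to 0.0806 and Cbln1 from -0.20 to -0.0343 with both trends removed, while Crtam moved to 0.13, Pax6 to 0.0157 and Zic1 to -0.0544. The ratio of Cbln1 to Cbln3 given above was not corrected for these trends.

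**Figure D5:**
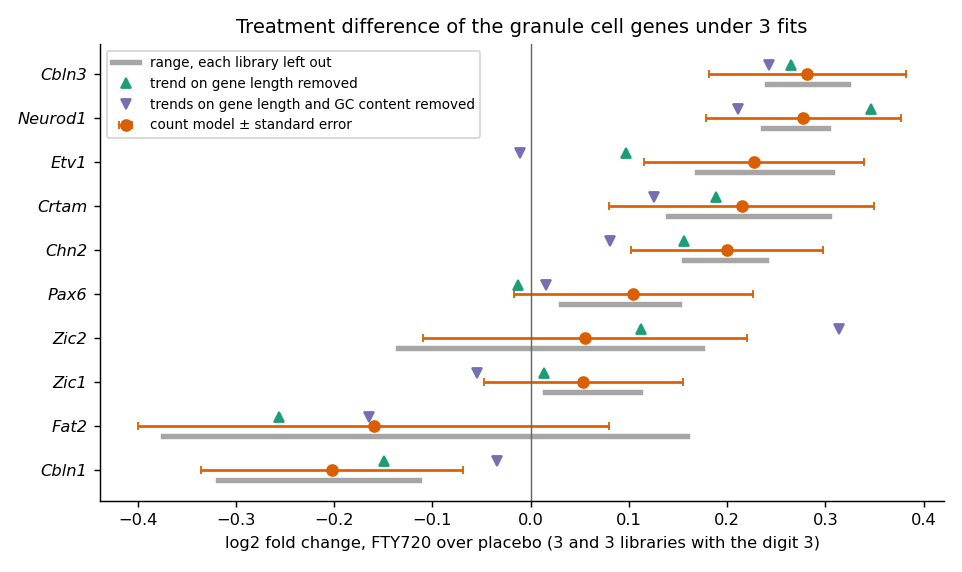
The log2 fold change of FTY720 over placebo within digit 3 for each gene, with its standard error (circles), with the length trend removed (upward triangles), with length and GC trends removed (downward triangles), and as the range when each library is left out (grey bars). Cbln3 and Neurod1 stay above 0.2 throughout, Etv1 falls to -0.0106 with both trends removed, and the range of Fat2 spans 0.

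With all 10 libraries and the digit as a covariate, 3 of the 10 genes had an unadjusted p under 0.05, where the background share was 12.1% in either direction and 5.05% in the higher one, and none passed the adjusted threshold in edgeR or DESeq2. They were Neurod1 at a log2 fold change of 0.31 (standard error 0.0890), Chn2 at 0.22 (0.0773) and Etv1 at 0.20 (0.0920), with adjusted p between 0.373 and 0.410 by edgeR. Cbln3 was at 0.28 (standard error 0.13), and its unadjusted p was above 0.05. Leaving out P1-623, the only placebo library with digit 1, left 1 of the 10 genes at an unadjusted p under 0.05. If the digit was left out of the fit, the direction turned for 7 of the 10 genes. Cbln3 then stood at -0.31, Neurod1 at -0.20 and Crtam at -0.37 on the log2 scale, and no gene of the 10 had an unadjusted p under 0.05.

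A difference in the FTY720 effect between the digits was not detectable with 1 placebo library for digit 1. None of the 10 genes had an unadjusted p under 0.05 for that difference, where the background share was 2.09% of 19954 genes, and the lone library was assumed to vary like the other groups. Among the digit 1 libraries, Neurod1 averaged 12.3 CPM in the 3 FTY720 mice and was at 9.40 CPM in P1-623, and Chn2 averaged 42.9 CPM against 35.9 CPM. Zic2 and Pax6 went the other way, at 28.7 against 32.2 CPM and 10.3 against 11.1 CPM. Cbln1, with a lower mean under FTY720 within digit 3, averaged 33.8 against 31.5 CPM here.

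The other lists gave values to set beside these within the digit 3 libraries, and none of their genes passed the adjusted threshold for FTY720 against placebo. Of the 19 further granule cell genes tested, 7 had a log2 fold change above 0 and 12 below, with a median of -0.10, which is the opposite sign to the 10 genes. Rbfox3, the neuronal nuclear antigen, had an unadjusted p under 0.05, at 171, 184 and 189 CPM with FTY720 against 219, 219 and 223 CPM with placebo (log2 fold change -0.28, adjusted p = 0.654 by edgeR). Nrxn2, at a log2 fold change of -0.42, also had an unadjusted p under 0.05, with an adjusted p of 0.654 by edgeR. Of the 10 Purkinje cell genes, 8 had a log2 fold change above 0, with a median of 0.19, and 1 had an unadjusted p under 0.05, Lhx1, at a log2 fold change of 0.35. The sum of the Purkinje cell genes was between 1730 and 2281 CPM with FTY720 and between 1630 and 1966 CPM with placebo, and its part in the granule cell values was not tested. Hox and cortex genes went mostly the other way. The 4 Hox genes tested, all low in counts, were below 0, with a median of -0.43. Of 10 cortex and dentate gyrus genes, 8 were below 0 and 2 above, with a median of -0.070 and Emx1 at -0.68. Of 8 meningeal genes 7 were below 0, and of 6 genes of Bergmann glia and cerebellar interneurons 4 were above. These shifts of whole lists were not tested.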

How the data were processed

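RNA-seq libraries from the brains of 10 Slc20a2-HO mice, 6 given FTY720 and 4 given placebo, were made with a kit that does not mark strand. Per the submitters' processing notes, the authors used CASAVA 1.8, fastp, HISAT2 2.0.5 on GRCm38 and featureCounts 1.5.0-p3. The annotation release and counting options are not given in the sources used here, although 98.3% of the 54409 genes shared with GENCODE M21 have its coordinates. The authors deposited whole-number counts per gene and mouse, without normalization, and FPKM values made from them. Each column was matched to a mouse by its name, and each mouse is a separate animal.

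The quasi-likelihood test of edgeR 4.0.16 in R 4.3.3 was run on the counts after filterByExpr and TMM scaling, with Benjamini-Hochberg adjustment over all genes tested. CPM values are counts over TMM-scaled library sizes. Within digit 3 (3 against 3) and over all mice with the digit as a covariate, FTY720 was compared with placebo, and the digits were compared with treatment as a covariate. The standard error was taken as the log2 fold change over the root of its F. For single genes, mean log2 CPM (prior count 2) was permuted exactly over the 20 splits, two-sided. The pipeline was tested on simulated data. Totals of 14772745 to 18303981 counts per mouse leave counting error small except for Cbln3, Fat2 and Crtam with digit 1, where exact 95% intervals are given.

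The 10 genes and the 10 other lists were chosen with earlier results of these data known. Genes named from the other lists were those with the largest and smallest ratio between the digits, cerebellins, their receptors and Zic genes, and those called for FTY720. Genes most like Cbln3, Fat2 and Crtam were the 5 protein-coding genes of highest r. List genes named for an unadjusted p under 0.05, single T-cell genes, genes named as called between the digits and the ratios between genes were chosen after their values were seen, and 1 list gene, Sept4, was not matched. Some list genes are not reported here. Alternatives were upper-quartile or RLE scaling, DESeq2 1.42.0, no filter, at least 10 counts in every library, limma 3.58.1 on log2(FPKM + 0.1) and log2(FPKM + 1), the first numeral of the mouse number as a covariate, no digit covariate, no treatment covariate, and each library left out. Ratios between the digits with each library left out, and removal of trends on gene length, or on length and GC content (splines of 4 degrees of freedom, GC known for 99.9% of genes), were chosen after seeing the data. Promoter windows come from RefSeq (GRCm38.p6), and protein sequences were not used here.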

Additional observations from a re-analysis of the deposited data

Results flagged for a closer look

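Within each gene, libraries were screened by Dixon's ratio in 40 groups of 4 or 6, and 5 values stood apart from their group, where chance gives about 1 in 20. Among the 4 placebo mice, P1-623 was far below the others for Cbln3 (0.584 CPM, with the next at 249 CPM), Neurod1 (9.40, with the next at 76.7 CPM), Zic1 (68.6, with the next at 252 CPM) and Chn2 (35.9, with the next at 143 CPM). P1-623 is the only placebo library with digit 1, so this repeats the step between the digits. Among the 4 digit 1 mice, Crtam in F1-624 was at 0.238 CPM, with the next at 0.0704 CPM, which rests on 4 counts against 1 and lies within a few counts of 0.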

How the results depend on the processing

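No paired analysis was possible because the labels give no replicate numbers, and same-numbered mice (612) occur in both groups only once. No granule cell gene passed an adjusted p of 0.05 for FTY720 under any alternative or with any library left out, and the smallest adjusted p was 0.171 (Etv1, without P3-904) within digit 3 and 0.0999881 (Neurod1, DESeq2) with the digit as covariate. Within digit 3, the genes called at an adjusted p under 0.05, 0 as reported, were 5 with DESeq2 and 134 with no filter on low counts. Those at an unadjusted p under 0.05 were 2340 with no filter and 765 with the first numeral of the mouse number as covariate, which also left 0 granule cell genes. With each library left out they were between 388 (without F3-609) and 3896 (without P3-904), with 0 to 3 granule cell genes. Directions turned within digit 3 for Pax6 (-0.0129, length trend removed) and for Zic1 (-0.0544) and Etv1 (-0.0106, both with length and GC trends removed). With libraries left out, Fat2 ranged from -0.37 to 0.16 and Zic2 from -0.13 to 0.17.

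With the digit as covariate, genes called at an adjusted p under 0.05 were 16 with DESeq2, 338 with no filter and 0 to 2 with libraries left out. Genes at an unadjusted p under 0.05 were 1052 with length and GC trends removed, 461 with no digit covariate and 1074 (without F3-609) to 3764 (without P3-904) with libraries left out, and granule cell genes among them were 0 with no digit covariate and 1 to 4 with libraries left out. With no digit covariate the log2 fold changes were -0.31 (Cbln3), -0.20 (Neurod1), -0.32 (Zic1), -0.24 (Pax6), -0.0566 (Etv1), -0.37 (Crtam) and -0.18 (Chn2). With the length trend removed Zic2 was at 0.0449 and Pax6 at -0.0811. With length and GC trends removed Cbln1 was at 0.0509, Zic1 at -0.0550, Zic2 at 0.23, Pax6 at -0.0562 and Etv1 at -0.0192. With libraries left out Fat2 ranged from -0.37 to 0.16, Zic2 from -0.16 to 0.0524 and Pax6 from -0.0319 to 0.10. Between the digits, genes called were 2593 (without P1-623) to 6077 with libraries left out, and genes at an unadjusted p under 0.05 for the difference of effects 269 to 598. The causes were not tested.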
